A study of Mus musculus with 4 samples.

Results

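The Hox genes Hoxb7, Hoxb8, Hoxc4 and Hoxa9 were the members of the 4 mammalian Hox clusters that the authors listed as changed in mouse embryonic stem cells in which the long non-coding RNA Mrhl was targeted by an shRNA. They were selected by symbol from the authors' tables of lower and higher genes and made up 4 of the 39 annotated mouse Hox genes and 4 of 1132 distinct listed symbols. The cells were E14tg2a, an established embryonic stem cell line of the 129/Ola strain. In 1 group they received a scrambled shRNA and in the other sh-Mrhl, also called shRNA 4, each with 2 libraries. All cells were kept on gelatine in serum medium, and RNA was taken 48 hours after transient transfection. A label field speaks of a lentivirus, whereas the protocol describes transfection with a reagent. Nothing in the labels says whether the 2 libraries of a group came from separate cultures.

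Hox genes encode homeodomain transcription factors that give cells along the head-to-tail axis their regional identity. They sit in 4 clusters, and their order along each cluster follows the order in which they are switched on in time and along the body, with low-numbered paralog groups early and anterior and high-numbered groups late and posterior. In embryonic stem cells most Hox promoters carry both activating and Polycomb repressive histone marks and are held nearly silent, and retinoic acid or caudal signals open the clusters from the low-numbered end.

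Among the 4 genes the direction differed by paralog group, with the lower-numbered members lower in sh-Mrhl and the higher-numbered ones higher. The authors' deposited table of lower genes gave -3.32 for Hoxb7, which acts in trunk patterning. It gave -1.88 for Hoxc4, the last gene at the low-numbered end of HoxC, with roles in neck and upper trunk. The authors' deposited table of higher genes gave 2.44 for Hoxb8, a trunk and spinal cord gene that also acts in myeloid progenitors. It gave 1.95 for Hoxa9, a posterior gene known for its part in blood stem and progenitor cells. The members of paralog groups 4 and 7 were thus the lower ones, and those of groups 8 and 9 the higher ones. The genes were chosen for being in these tables, so this order is a description of 4 genes and was not tested.

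Each value is the authors' single fold change of sh-Mrhl against scrambled, without counts, levels or p-values for the libraries behind it. It cannot be said whether a difference exceeds the spread between the libraries, and no test was possible. The scale of the fold change is not stated either, so -3.32 may be a log2 value or a signed linear fold. In bulk RNA, fewer cells expressing a gene and less RNA per cell cannot be told apart. No row named Mrhl, so the targeted RNA could not be checked, and depth is unknown. Of 1131 symbols with 1 direction, 721 were lower and 410 were higher, or 36.3% higher.

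**Figure D1:**
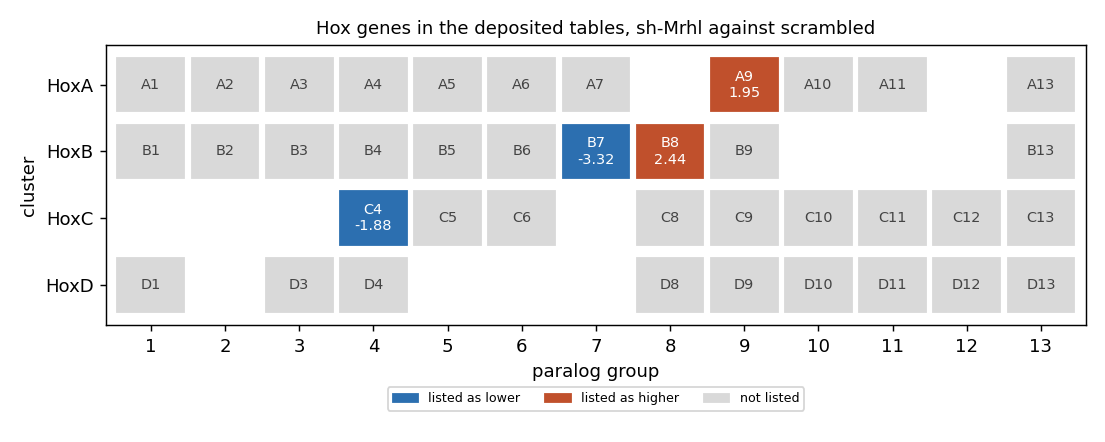
Each tile is 1 of the 39 annotated Hox genes, placed by paralog group (x axis) and cluster (y axis), and coloured by the authors' table that lists it, with the deposited value for listed genes. The lower genes stand at groups 4 and 7 and the higher genes at groups 8 and 9, and no coding gene of HoxD was listed.

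The other 35 Hox genes were in neither table. The split of the listed ones was 2 lower and 2 higher. Over all 21924 annotated protein-coding symbols, 2.51% were listed, 1.57% as lower and 0.930% as higher. The members were chosen for being listed, so nothing is read from their share of 10.3% of the Hox genes. Of the 13 paralog groups 4 had a listed gene, and in each of these groups the other paralogs, 9 genes in all, were not listed. Group 4 had Hoxc4 but not Hoxa4, Hoxb4 or Hoxd4, and group 7 had Hoxb7 but not Hoxa7. Group 8 had Hoxb8 but not Hoxc8 or Hoxd8, and group 9 had Hoxa9 but not Hoxb9, Hoxc9 or Hoxd9. A gene missing from the tables may still have changed, because the listing threshold is not stated and only listed genes were analysed here. No listed value lay between -1.5 and 1.5, and what else a gene had to pass is unknown.

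By cluster, HoxB on chromosome 11 held both directions. HoxA on chromosome 6 had its 1 listed coding gene, Hoxa9, among the higher genes, and HoxC on chromosome 15 had Hoxc4 among the lower ones. HoxD on chromosome 2 had no listed coding gene. The clusters span 105 kb, 174 kb, 116 kb and 96.8 kb for HoxA, HoxB, HoxC and HoxD in GENCODE M21 on mm10.

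The homeoboxes of Hoxb7, Hoxb8 and Hoxc4 are the 180-base coding stretches for the DNA-binding homeodomain. They are printed to show how alike these genes, listed in both directions, are in that stretch. They were located in GENCODE M21 transcripts on GRCm38, are written 5′ to 3′ on the coding strand, and carry capitals where a base differs from Hoxb7. The stretches lie at chr11:96289385-96289564 (plus strand) for Hoxb7, chr11:96284174-96284353 (plus) for Hoxb8 and chr15:103035663-103035842 (plus) for Hoxc4.
Hoxb7: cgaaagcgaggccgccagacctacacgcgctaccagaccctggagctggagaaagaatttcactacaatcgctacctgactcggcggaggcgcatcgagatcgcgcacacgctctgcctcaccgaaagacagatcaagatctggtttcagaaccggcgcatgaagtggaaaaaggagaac
Hoxb8: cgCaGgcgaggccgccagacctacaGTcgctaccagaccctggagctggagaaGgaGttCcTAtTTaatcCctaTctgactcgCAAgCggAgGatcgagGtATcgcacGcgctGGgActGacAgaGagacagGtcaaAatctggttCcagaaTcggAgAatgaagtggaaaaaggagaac
Hoxc4: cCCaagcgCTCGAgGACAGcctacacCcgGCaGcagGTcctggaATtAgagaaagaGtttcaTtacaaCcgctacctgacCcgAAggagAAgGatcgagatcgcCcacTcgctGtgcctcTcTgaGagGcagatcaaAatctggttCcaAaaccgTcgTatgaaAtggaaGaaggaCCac

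The Hoxb8 homeobox differed from that of its neighbour Hoxb7 at 35 bases and was 80.6% identical to it, although the authors listed the genes in opposite directions. Hoxc4, listed as lower like Hoxb7, was 74.4% identical to it. Among the other 38 Hox homeoboxes the nearest to Hoxb7 was that of Hoxb6, at 88.9%, which was not listed. The nearest to Hoxb8 were Hoxb6, Hoxb7 and Hoxd8 at 80.6% each, and the nearest to Hoxc4 was Hoxb4 at 82.2%. Hoxb8 and Hoxc4, at 68.3%, had the least alike homeoboxes of these 3 genes. The most alike pair, Hoxb7 and Hoxb8, and this least alike pair were both listed in opposite directions. Hoxb8 was the only higher gene of these 3, so this follows whatever the likeness, and nothing is read from it. Hoxa9 was left out of these pairs. Over the whole coding sequence Hoxb7 and Hoxb8 were 58.5% identical in a global alignment. The encoded proteins have 217 residues for Hoxb7, 243 for Hoxb8, 264 for Hoxc4 and 271 for Hoxa9. Exact runs of at least 31 bases were shared between Hoxb7 transcripts and those of Hoxa5, Hoxa6 and Hoxb6, the longest being 37 bases with Hoxb6. Hoxb8 shared a run of 32 bases with Hoxd8, and Hoxb7 and Hoxb8 shared none of 31 bases or more with each other. Hoxa9 shared such runs with Hoxc5 and Hoxc9, and with Mir196b, which lies inside it. Hoxc4 shared runs of up to 35 bases with 7 transcripts of genes outside the Hox clusters. Read length is not given in the sources used here, so how many reads such runs could misplace is unknown.

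The neighbours Hoxb8 and Hoxb7 lie head to tail on the plus strand of chromosome 11. Hoxb8 is at chr11:96281905-96285315 and Hoxb7 at chr11:96286623-96290162, with 1307 bases between them and no annotated gene overlapping either. The authors' deposited tables gave 2.44 for Hoxb8 and -3.32 for Hoxb7. Their outer neighbours, Hoxb9 at 5309 bases from Hoxb8 and Hoxb6 at 2313 bases from Hoxb7, were not listed. The direction thus changed between adjacent genes. With no level per library it is not known how many reads lay behind either gene.

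**Figure D2:**
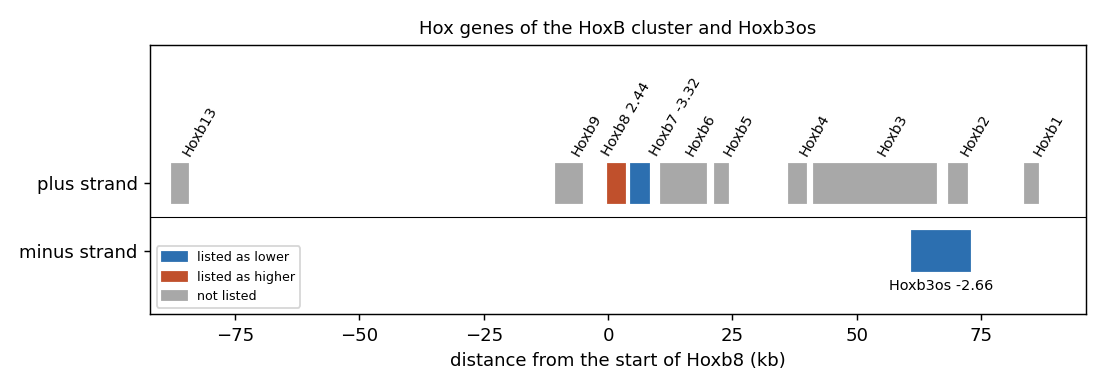
Hox genes of the HoxB cluster on the plus strand and Hoxb3os on the minus strand, drawn to scale as distance from the start of Hoxb8 in kb (x axis), with the authors' deposited values for listed genes. Hoxb8 at 2.44 and Hoxb7 at -3.32 lie side by side, and Hoxb3os at -2.66 lies 52.9 kb beyond Hoxb7.

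Among values of the same table Hoxb7 ranked high and Hoxc4 and Hoxa9 stood near the middle. Hoxb7 was the 26th of 721 lower symbols by size, so that 3.61% were at least as large. Hoxb8 was the 66th of 410 higher symbols, with 16.1% at least as large. Hoxa9 was the 192nd of 410, with 46.8% at least as large, and Hoxc4 the 387th of 721, with 53.7%. The median absolute value was 1.91 among lower and 1.94 among higher symbols, so the values of Hoxc4 and Hoxa9 lay close to the middle of theirs.

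**Figure D3:**
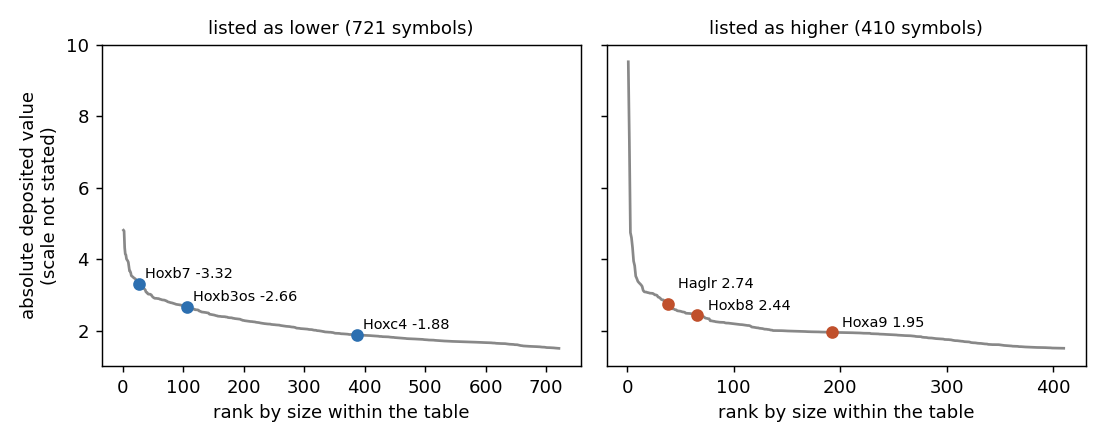
The grey curves give the absolute deposited value (y axis, scale not stated) of the listed symbols against their rank by size (x axis), for 721 lower symbols on the left and 410 higher symbols on the right. Points mark Hoxb7 at -3.32, Hoxb3os at -2.66 and Hoxc4 at -1.88 among the lower genes, and Haglr at 2.74, Hoxb8 at 2.44 and Hoxa9 at 1.95 among the higher ones.

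A pair of non-coding genes inside the clusters was listed besides the 4 members. Of 85 genes annotated between the outermost Hox genes of the 4 clusters, 6 were listed, and 4 of these are the members, chosen for being listed. Of the 43 that were not coding 2 were listed. Over all annotated symbols of any type 2.04% were listed, and nothing is read from the counts against it. Hoxb3os, an antisense transcript of HoxB, ranked 106th of 721 lower symbols by size, with -2.66 in the authors' deposited table. It lies at chr11:96343072-96354691 on the minus strand and overlaps Hoxb3 by 4859 bases and Hoxb2 by 3488 bases on the opposite strand. Neither Hoxb3 nor Hoxb2 was listed. The strand setting of the counting is not given, so reads of Hoxb3os and of these 2 genes may not be separable. Haglr, a non-coding RNA transcribed away from Hoxd1, ranked 38th of 410 higher symbols, with 2.74 in the authors' deposited table. It lies at chr2:74748422-74762896 on the minus strand, 83 bases from the start of Hoxd1, which was not listed. Its far end overlaps Hoxd3 by 21 bases, and the gene models Gm14424 and Gm14426 also overlap Haglr on the opposite strand. Reads of Haglr and of these overlapping genes may likewise not be separable. HoxB thus held 2 lower genes and 1 higher gene, and HoxD held 1 higher gene, when non-coding genes were included. By position, Haglr, a higher gene beside Hoxd1, departed from the order by paralog group described for the 4 members. Hoxb3os, a lower gene over Hoxb3 and Hoxb2, did not depart from it. Hotair, Hotairm1, Hoxb5os and the other annotated non-coding genes of the clusters were not listed.

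Promoter sequences are shown for the coding members with an entry in the RefSeq table (GRCm38.p6), Hoxb8, Hoxc4 and Hoxa9, and for Hoxd1, whose window also holds the start of Haglr. Each runs 5′ to 3′ on the gene's strand from 250 bases before to 50 bases after the start. In all 4 windows the start is also that of an annotated GENCODE transcript of the gene. Capitals mark 5 motifs searched on both strands. They are TATAAA for the TATA box, CCAAT for the CCAAT box, GGGCGG for the GC box, TTTATG for a core recognised by Cdx proteins and TGATTNAT for a core bound by Hox proteins together with TALE partners. The reverse of TATAAA and TTTATG share their first 5 letters. The windows are chr11:96281655-96281954 (plus) for Hoxb8, chr15:103034145-103034444 (plus) for Hoxc4, chr6:52227321-52227620 (minus) for Hoxa9 and chr2:74762730-74763029 (plus) for Hoxd1 and Haglr.
Hoxb8: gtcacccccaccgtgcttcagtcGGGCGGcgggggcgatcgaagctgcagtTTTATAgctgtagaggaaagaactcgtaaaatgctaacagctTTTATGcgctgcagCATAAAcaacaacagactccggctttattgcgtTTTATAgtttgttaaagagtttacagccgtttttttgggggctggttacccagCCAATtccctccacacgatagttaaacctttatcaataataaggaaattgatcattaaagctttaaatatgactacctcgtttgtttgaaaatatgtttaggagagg
Hoxc4: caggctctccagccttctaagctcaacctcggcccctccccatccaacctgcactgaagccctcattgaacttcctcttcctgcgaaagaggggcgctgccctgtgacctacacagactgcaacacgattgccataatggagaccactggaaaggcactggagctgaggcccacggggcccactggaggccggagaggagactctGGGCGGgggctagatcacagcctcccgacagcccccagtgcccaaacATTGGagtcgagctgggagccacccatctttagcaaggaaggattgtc
Hoxa9: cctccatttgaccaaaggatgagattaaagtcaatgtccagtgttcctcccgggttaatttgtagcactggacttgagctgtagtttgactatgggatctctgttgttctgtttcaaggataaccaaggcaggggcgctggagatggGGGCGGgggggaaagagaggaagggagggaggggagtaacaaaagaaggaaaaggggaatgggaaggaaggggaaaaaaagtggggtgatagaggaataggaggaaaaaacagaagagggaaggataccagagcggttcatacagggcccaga
Hoxd1: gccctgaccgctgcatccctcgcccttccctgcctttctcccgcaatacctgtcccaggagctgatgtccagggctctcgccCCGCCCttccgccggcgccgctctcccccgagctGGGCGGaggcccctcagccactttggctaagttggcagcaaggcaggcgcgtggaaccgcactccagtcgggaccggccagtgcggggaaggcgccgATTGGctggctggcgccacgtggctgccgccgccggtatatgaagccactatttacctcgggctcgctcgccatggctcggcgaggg

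The Hoxb8 window, of a gene listed as higher, had 2 matches to TATAAA and 2 to TTTATG, which 13.6% and 11.9% of 32851 promoter windows hold. Neither motif was in the windows of Hoxc4, Hoxa9 or Hoxd1. Both TATAAA matches of Hoxb8 read TTTATA, so they are on the reverse strand, and they lie upstream of its CCAAT match. Matches were counted anywhere in a window and on either strand, so none is shown to be a placed TATA or CCAAT box. All 4 windows held GGGCGG, as did 35.7% of all windows, and those of Hoxb8, Hoxc4 and Hoxd1 held CCAAT, as did 37.4%. Among the 24 windows that the table holds for 22 Hox genes the shares were 16.7% for TATAAA, 20.8% for TTTATG, 41.7% for GGGCGG, 62.5% for CCAAT and 8.33% for TGATTNAT. None of the 4 held TGATTNAT, which 3.22% of all windows hold. In base composition Hoxb8 was 42.3% G and C with 13 CpG dinucleotides, Hoxc4 60.3% with 9, Hoxa9 49.7% with 4 and the shared window of Hoxd1 and Haglr 69.7% with 29. The median over all windows was 52.7% and 7, and over the 24 Hox windows it was 57.7% and 14.5. The CpG counts of Hoxb8, Hoxc4 and Hoxa9 were thus below the Hox median and that of Hoxd1 above it. The printed windows of higher genes held both the lowest and the highest of these CpG counts. The RefSeq table also has a window for Hoxb3os, listed as lower, which is not printed because no annotated GENCODE transcript starts in it and it lies over an exon of Hoxb2. It held none of the 5 motifs and was 60.7% G and C with 19 CpG dinucleotides. So few windows were not compared by direction. Hoxc4 and Hoxa9 have further annotated starts, and the tables give 1 value per gene, so which start a value reflects is not known.

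The clusters also encode the microRNAs of the miR-196 family, which pair with Hox transcripts, and 1 of them, Mir196b, lies within the longer transcripts of Hoxa9. Their sequences are shown because sites for them differ between the members. Mir196a-1 lies in HoxB at chr11:96265187-96265208, Mir196a-2 in HoxC at chr15:102973365-102973386 and Mir196b in HoxA at chr6:52230129-52230150 (mature arms, RefSeq, GRCm38.p6), the first 2 giving the same mature RNA. Capitals mark the seed, bases 2 to 8, which is the same in both mature sequences.
mmu-miR-196a-5p: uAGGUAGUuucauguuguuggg
mmu-miR-196b-5p: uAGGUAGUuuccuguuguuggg
Below are the stretches of the Hoxb8, Hoxb7 and Hoxa9 3′ untranslated regions (GENCODE M21) that pair best with miR-196a-5p over its 22 bases, with paired bases in capitals.
Hoxb8: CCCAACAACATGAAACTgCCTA
Hoxb7: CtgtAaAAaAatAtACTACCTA
Hoxa9: CaaAAggAaAgaAAACTACCTt

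The Hoxb8 stretch paired at 21 of 22 bases, with a G-U wobble at the remaining one, and no other gene among 21155 had a stretch with as many paired bases. The wobble lies in the seed, so Hoxb8 has no exact match to ACTACCT, the complement of the seed. Hoxb7 and Hoxa9 had such a match, with 14 of 22 bases paired, and 4565 of the 21155 genes had a stretch paired at least as well. Hoxc4 had no seed match. Exact seed matches stood in 9 of 39 Hox genes and in 6.80% of all genes. Genes with a seed match were found on both sides, Hoxb7 among the lower and Hoxa9 among the higher. The 22-base miRNAs themselves were not measured, and no hairpin gene of the family was in the tables. Whether miR-196 had a part in the Hox values was not tested.

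Lists of genes known to act with or upstream of Hox genes, or related to them, were searched for listed genes. None of 11 TALE homeodomain cofactors was listed. The same held for 36 Polycomb genes, 20 Trithorax and H3K4 methylation genes, 10 genes of CTCF and cohesin, 13 caudal signalling genes and 4 hindbrain regulators of Hox genes. Of 19 retinoic acid genes 1 was listed, Rarb, the retinoic acid receptor gene that retinoic acid itself induces, at -1.85 in the authors' deposited table. Of 8 ParaHox and Evx genes 1 was listed, the pancreatic regulator gene Pdx1, at 2.15 in the authors' deposited table. With 2.51% of coding symbols listed, lists of this length with no listed gene or 1 are to be anticipated. Nothing is read from these counts.

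Markers of the labelled cells and of others gave no level, since the tables hold changed genes only. None of 23 pluripotency genes was listed, so the embryonic stem cell label could not be checked by their level. Of 16 fibroblast and feeder cell genes 1 was lower, Col3a1, a collagen chain gene, at -1.69 in the authors' deposited table. Of 18 genes of differentiated neural, mesodermal and endodermal cells 1 was higher, the early cardiac mesoderm gene Mesp1 at 2.12, and 1 was lower, Hand1, a heart and trophoblast gene, at -1.70 in the authors' deposited tables. Over all annotated protein-coding symbols 2.51% were listed, 1.57% as lower and 0.930% as higher, and nothing is read from these counts. Whether such cells or genes had a part in the Hox values was not tested.

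Outside the clusters, the nearest listed genes lay from 186 to 2009 kb away. The nearest listed gene outside HoxB was the gene model Gm29202 at 186 kb, with -1.90 in the authors' deposited table, and on the far side Gm11517 at 427 kb, with 1.99. For HoxA the nearest were Gm8038 at 1534 kb, with -2.24, and 9130019P16Rik at 2009 kb, with 1.90 in the authors' deposited tables. For HoxC the nearest was Gm10337 at 417 kb, with 2.21 in the authors' deposited table. No listed gene lay on the other side of HoxC, toward the chromosome end. For HoxD they were Gm13653 at 427 kb, with 2.23, and Sp9, a zinc finger gene of limb and forebrain, at 1384 kb, with -3.32 in the authors' deposited tables. Each cluster with a neighbour on both sides had 1 lower and 1 higher gene nearest to it.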

How the data were processed

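RNA sequencing was done on 2 scrambled and 2 sh-Mrhl libraries, from total RNA (Trizol, DNase I) with the TruSeq kit of Illumina, per the labels' protocols. The deposited tables list genes as lower (729 rows) or higher (414 rows), each with a signed fold-change score computed by the authors. Its scale is not given, and no value lies between -1.5 and 1.5. TopHat2, Cuffdiff and mm10 are named in the submitters' processing notes. The sources used here do not give their versions, the annotation, the strand setting, the test or the threshold. Values were used as deposited. Repeated symbols were counted once, and 1 symbol in both tables was left out of ranks. Of 1132 symbols 1129 were found in GENCODE M21 (GRCm38, the assembly also called mm10). The count test planned for values per library could not be run. No test was made.

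The members and gene lists were chosen with earlier results of these data known. The genes named were the members, up to 4 listed genes of each list, listed genes inside a cluster and the listed gene nearest to each cluster end. Unlisted genes are named as paralogs, neighbours or examples. Homeoboxes were placed from the homeodomain's recognition helix in the longest coding transcript. Some items are not reported here. The motif search was tested for TGATTNAT only, with a match planted in simulated sequences of A and G. The other motifs were not tested in this way. The tools were biopython 1.88, pandas 2.3.3, matplotlib 3.10.9, scipy 1.17.1 and numpy 2.4.6 under Python 3.11.15.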

Additional observations from a re-analysis of the deposited data

How the results depend on the processing

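With absolute values of at least 2 only, 1 lower Hox gene, Hoxb7, and 1 higher one, Hoxb8, were left, and the lower genes of the retinoic acid, fibroblast and differentiated-cell lists went to 0. The share of coding symbols listed was then 1.09%. Counting every row left the Hox counts as they were. Among coding genes only, 20.4% of the higher symbols were at least as large as Hoxb8 and 56.8% as large as Hoxa9, and without Gm and Rik models 21.0% and 53.3%. The ranks of Hoxb7 and Hoxc4 stayed within 95% Wilson binomial intervals around their main ranks, and those of Hoxb8 and Hoxa9 did not. The listed symbols are a fixed set and not a sample. These intervals thus serve as a yardstick only and do not measure the spread between libraries. No paired analysis was possible because each gene has only 1 value for both groups. Other normalizations, filters, pseudocounts and the omission of single replicates could not be run either. The limits that depth sets are unknown.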
